A study of Mus musculus with 6 samples.

Results

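The 10 genes described here are *Dysf*, *Trim72*, *Anxa1*, *Anxa2*, *Anxa5*, *Anxa6*, *Ano5*, *Bin1*, *Mtm1* and *Ehd1*, whose proteins reseal the torn muscle plasma membrane or shape the T-tubules. They were taken by symbol from a fixed list, 10 of the 55401 genes of the count matrix, and the rule for picking them uses no measured value, although earlier results of these data were known when the list was made. The RNA was from the C2C12 line of mouse myoblasts, which fuse into multinucleated myotubes in low serum, and was collected 2 d post differentiation in medium with horse serum. Control cells (3 libraries, wild type per the labels) had received a mock plasmid whose guide has no match in the mouse genome. *Phf2* KO cells (3 libraries) had received pooled guides against *Phf2*, which encodes a JmjC-domain histone demethylase. The plasmids of both groups carried Cas9 and ZsGreen, and the sorted cells were kept as a pool, so neither group is a clone. Mock cells would have no double-strand break, and the paper does not exclude an effect of the break itself. Replicates were wells of 1 experiment, so p-values measure the spread between wells, and a difference between the pools cannot be told apart from an effect of the knockout.

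The sarcolemma, the plasma membrane of the muscle fibre, tears during contraction, and calcium entering through the tear sets off its repair. Vesicles are gathered at the wound and fused with the help of dysferlin (*Dysf*) and MG53 (*Trim72*), while annexins bind the exposed lipids in the presence of calcium and form a cap. T-tubules are inward folds of the same membrane that carry the action potential to the calcium release sites, and amphiphysin 2 (*Bin1*) bends membrane into such tubules. Loss of *DYSF* or *ANO5* causes limb-girdle muscular dystrophy in people, and mutations of *BIN1* or *MTM1* cause centronuclear myopathy.

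Library totals were 56821143 to 58507833 estimated counts in control and 52526109 to 67502788 in KO. The targeted gene *Phf2* was measured at 102.4, 95.5 and 104.6 CPM (counts scaled to the library size) in control and at 41.1, 37.6 and 38.6 CPM in KO, so that 38.8% of its RNA level was left. Its log2 fold change was -1.37 (SE 0.055, quasi-likelihood test of edgeR, adjusted p = 8.32e-09). The paper reports a larger fall of PHF2 protein, measured in myoblasts, so the RNA left does not measure the protein left. The 8 skeletal muscle markers (*Myod1*, *Myog*, *Des*, *Ckm*, *Acta1*, *Myh3*, *Tnnt3*, *Ttn*) were all detected, as the labelled cell type requires. Their summed level was 8302 to 9794 CPM in control and 6595 to 7090 CPM in KO (exact permutation test, two-sided, p = 0.1, the smallest that 3 against 3 allows, and 0.25 after adjustment over 5 marker lists). Each of the 8 had a lower mean in KO. By the quasi-likelihood test of edgeR 4 of them passed an adjusted p of 0.05, where 6.48% of all genes tested did, with 7 by exactTest and limma-voom, 8 by DESeq2, 2 by limma on log2-transformed TPM, 2 without control replicate 1, 2 without KO replicate 3 and 2 to 6 over all fits without 1 library. *Myog* and *Myh3* were picked out by the study from these same libraries, so their direction here is not independent evidence. In bulk RNA, fewer cells of a type and less RNA per cell cannot be told apart. The 5 adipocyte and the 5 endothelial markers were each under 1 CPM in every library, and so were 4 of the 5 macrophage markers, with *Adgre1* at 0. The fifth, *Cd14*, had a log2 fold change of -0.64 (quasi-likelihood test, adjusted p = 0.021), a call lost without control replicate 1, KO replicate 2 or KO replicate 3 and by limma on log2-transformed TPM. The summed macrophage level was 8.671 to 10.84 CPM in control and 5.452 to 6.78 CPM in KO. The part of these genes in the results was not tested. The summed level of the 8 cycling cell markers was 226.4 to 248.1 CPM in control and 219.8 to 240.1 CPM in KO.

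*Trim72*, *Dysf* and *Bin1* fell in the KO, *Anxa5* rose slightly, *Ehd1* was lower in every KO library without passing the threshold, and *Anxa1*, *Anxa2*, *Anxa6*, *Ano5* and *Mtm1* did not pass it. All 10 genes had passed the filter on low counts. At an adjusted p under 0.05, 4 of the 10 passed, against 6.48% of the 17310 genes tested. The 3 lower genes compare with 3.26% of all genes called lower and the 1 higher gene with 3.22% called higher. The libraries of the groups did not overlap for 5 of the 10 genes, against 25.1% of all genes tested. Across the 10 genes the median log2 fold change was 0.01, and over all genes tested it was -0.001. With limma on log2-transformed TPM in place of counts none of the 10 passed, at adjusted p-values of 0.0809 and 0.09 for *Dysf*, 0.062 and 0.0689 for *Trim72*, 0.1 and 0.106 for *Bin1*, and 0.136 and 0.14 for *Anxa5* with the 2 pseudocounts tried, while 6 had an unadjusted p under 0.05.

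**Figure D1:**
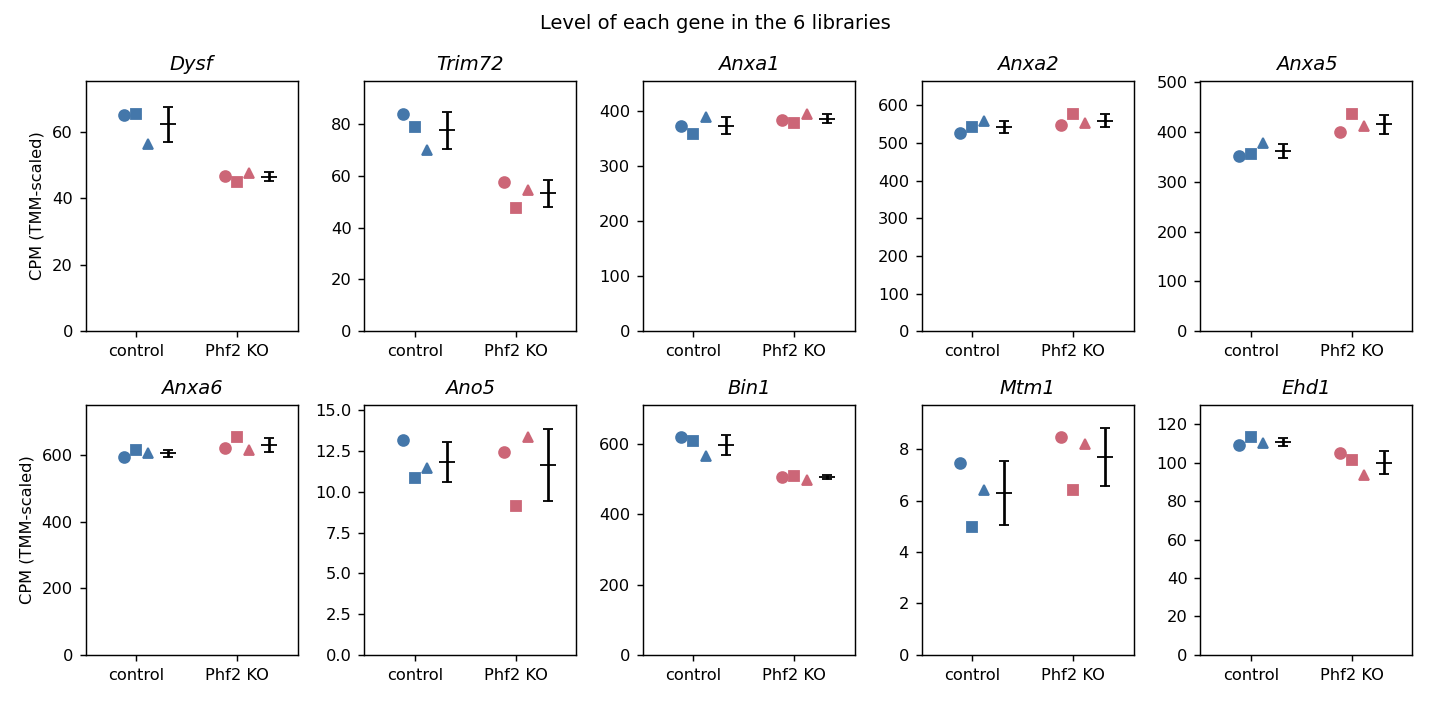
CPM of each of the 10 genes in the 6 libraries, with a panel and a linear axis for each gene, points for libraries and a bar with whiskers for the group mean and SD. The KO points lie wholly below control for *Dysf*, *Trim72*, *Bin1* and *Ehd1* and wholly above it for *Anxa5*, and the groups overlap for the other 5 genes.

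*Dysf* encodes dysferlin, a calcium-binding ferlin with tandem C2 domains that sits in the sarcolemma and in T-tubules. It was measured at 65.18, 65.52 and 56.31 CPM in control and at 46.89, 44.93 and 47.58 CPM in KO. All 3 KO libraries lay below the lowest control, which was control replicate 3. The KO mean was 74.5% of control, with a log2 fold change of -0.42 (SE 0.064, 95% interval -0.56 to -0.29, quasi-likelihood test, adjusted p = 0.00132). The KO libraries varied less among themselves (coefficient of variation 3.0%) than the control libraries (8.4%).

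*Trim72* encodes MG53, a muscle-restricted TRIM-family protein that gathers vesicles at a membrane wound and binds dysferlin. It was measured at 83.91, 78.74 and 69.72 CPM in control and at 57.7, 47.54 and 54.65 CPM in KO. Again no KO library reached the lowest control, control replicate 3. This was the largest fall among the 10 genes, to 68.8% of control (log2 fold change -0.54, SE 0.082, 95% interval -0.72 to -0.36, quasi-likelihood test, adjusted p = 0.00274). An antisense gene, *Gm15533*, covers 27.63% of the exon bases of *Trim72*. It held 32, 17 and 23 counts in control and 9, 2 and 13 in KO, where *Trim72* held 2497 to 4785 per library. The strand setting of the counting was not given, so whether antisense reads entered the counts of *Trim72* was not tested.

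*Bin1* encodes amphiphysin 2, whose BAR domain binds and bends membrane during T-tubule formation. Its level was 619.6, 610.2 and 565.7 CPM in control and 508.0, 509.4 and 498.9 CPM in KO. The groups were apart by more than the spread of either, and control replicate 3 was once more the lowest control. The change was smaller than those of *Dysf* and *Trim72*, to 84.4% of control (log2 fold change -0.24, SE 0.042, 95% interval -0.33 to -0.15, quasi-likelihood test, adjusted p = 0.00316). The matrix sums the transcripts of a gene, 6 for *Bin1* in GENCODE M21, so inclusion of its muscle-specific exon was not measured.

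The 8 skeletal muscle markers had lower KO means, like these 3 genes, and 7 of the 8 (all but *Myod1*) also had their lowest control value in replicate 3. The level of each gene was therefore also expressed against the mean log2 CPM of the 8 markers, a measure chosen after the values had been seen. For *Dysf* the difference to the markers was -3.481 ± 0.020 (SD, n = 3) on the log2 scale in control and -3.483 ± 0.035 in KO (exact permutation test, two-sided, p = 1.0). For *Trim72* it was -3.169 ± 0.031 in control and -3.289 ± 0.088 in KO, and all KO libraries were lower (exact permutation test, p = 0.1). For *Bin1* it was -0.216 ± 0.051 in control and -0.0392 ± 0.063 in KO, and all KO libraries were higher (exact permutation test, p = 0.1). Relative to the markers, *Dysf* therefore overlapped between groups, *Trim72* lay lower and *Bin1* higher. Over the 7 single values compared in this way, the p-values of 0.1 became 0.14 after Benjamini-Hochberg adjustment. The order of the 3 genes against the markers follows from changes in these same libraries, so it adds no separate evidence. With 3 against 3 libraries, the overlap of *Dysf* does not show that it fell as much as the markers. The part of the markers in the falls themselves was not tested.

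Promoter windows, the 250 bases before a RefSeq transcript start on GRCm38.p6, are shown for *Dysf* and *Trim72*, the 2 repair genes that fell together, and for *Anxa5*, which rose. Capitals mark E-boxes (CANNTG, a palindrome, so one search covers both strands), the motif that myogenic bHLH factors such as MyoD and myogenin bind. Windows of the same length hold at least 1 E-box in 66.2% of 32851 RefSeq promoters, so a match is common.
Dysf promoter, chr6:84008348-84008597, plus strand: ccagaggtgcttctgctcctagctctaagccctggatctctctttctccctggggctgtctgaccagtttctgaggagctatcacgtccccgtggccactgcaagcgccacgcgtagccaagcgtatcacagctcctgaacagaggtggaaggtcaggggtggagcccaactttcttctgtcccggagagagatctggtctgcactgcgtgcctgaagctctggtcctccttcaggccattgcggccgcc
Trim72 promoter, chr7:128004128-128004377, plus strand: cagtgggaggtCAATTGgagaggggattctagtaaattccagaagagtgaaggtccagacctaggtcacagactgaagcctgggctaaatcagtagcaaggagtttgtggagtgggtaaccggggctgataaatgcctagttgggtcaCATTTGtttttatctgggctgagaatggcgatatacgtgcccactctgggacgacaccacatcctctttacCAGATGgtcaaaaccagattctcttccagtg
Anxa5 promoter, chr3:36475888-36476137, minus strand: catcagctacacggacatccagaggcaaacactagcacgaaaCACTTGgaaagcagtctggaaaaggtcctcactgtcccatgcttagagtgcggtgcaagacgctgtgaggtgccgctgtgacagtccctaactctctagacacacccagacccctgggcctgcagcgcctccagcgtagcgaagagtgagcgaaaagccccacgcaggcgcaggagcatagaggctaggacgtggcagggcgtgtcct

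The *Dysf* window shown, the upstream one of 2, held no E-box, had a GC content of 60.0% and contained 10 CG pairs. The other *Dysf* window, chr6:84019136-84019385, also held no E-box, had a GC content of 61.2% with 11 CG pairs, and held 3 GC boxes (GGGCGG on either strand, present in 32.7% of all promoters). The *Trim72* window held 3 E-boxes, the first bases of which lie at -239, -102 and -31 from the start, with a GC content of 48.8% and 4 CG pairs. It lies inside the annotated span of *Trim72*, chr7:128003949-128011033, and its place relative to the exons of the other transcript was not examined. The *Anxa5* window held 1 E-box, at -208, with a GC content of 58.8% and 13 CG pairs. Of the genes not called, *Ano5* held 1 E-box in its window, and the windows of *Mtm1* held 1, 3 and 2. The last 2 windows of *Mtm1*, chrX:71214756-71215005 and chrX:71214824-71215073, overlap, and both E-boxes of the last are also counted in the other. The first bases after the start of the last window matched no GENCODE M21 transcript of *Mtm1*. The windows of *Anxa1* and *Anxa2* held none. The median over all promoters was 52.4% GC and 6 CG pairs. No window of the 10 genes held the E-box CAGCTG, a MEF2 site or a CArG box, which were present in 13.0%, 2.9% and 1.5% of all promoters. RefSeq windows were at hand for 7 of the 10 genes, 10 windows in all, and *Anxa6*, *Bin1* and *Ehd1* had none. These matches describe letters in a window and do not show binding.

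Annexins bind acidic membrane lipids in the presence of calcium and assemble at a wound. *Anxa5*, whose protein forms a lattice on torn membrane, was the only one of the 4 that passed the threshold. Its level was 351.5, 356.0 and 378.8 CPM in control and 399.4, 436.8 and 411.6 CPM in KO. Each KO library was above each control library, and the mean was 114.9% of control (log2 fold change 0.20, SE 0.046, 95% interval 0.10 to 0.30, quasi-likelihood test, adjusted p = 0.0185). This call was the least firm of the 4. It was lost under the quasi-likelihood test without control replicate 1 (adjusted p = 0.0796), without control replicate 2 (0.113), without KO replicate 2 (0.115) and without KO replicate 3 (0.0548). It was also lost with exactTest of edgeR, the test that the study names (adjusted p = 0.0563). Over all genes tested, exactTest called 1129 here, 537 higher and 592 lower in KO. The paper reports far fewer genes with this test at the same threshold. Why the counts differ was not tested, so the exactTest run here is not the list of the study.

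*Anxa1*, which takes part in wound closure and in resolving inflammation, was measured at 373.6, 358.9 and 389.7 CPM in control and at 383.6, 379.6 and 395.7 CPM in KO. The groups overlapped, and the log2 fold change was 0.05 (95% interval -0.05 to 0.14). *Anxa2*, which links membrane to actin and pairs with S100A10, was at 526.2, 541.3 and 558.0 CPM in control and at 547.1, 577.4 and 553.0 CPM in KO, with a log2 fold change of 0.05 (95% interval -0.04 to 0.13). *Anxa6*, the large annexin with a doubled core, was at 593.4, 615.1 and 606.6 CPM in control and at 620.8, 652.8 and 614.0 CPM in KO, with a log2 fold change of 0.06 (95% interval -0.03 to 0.14). All 3 intervals include 0 and end at 0.14 or below, so a rise of the size estimated for *Anxa5*, 0.20, lies outside each of them. Their adjusted p-values in the quasi-likelihood test were 0.487 to 0.631.

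The 4 annexins together made up 2204, 2189 and 2257 TPM (a level scaled by transcript length and library size) in control and 2322, 2419 and 2431 TPM in KO. The KO sums were all higher (exact permutation test, two-sided, p = 0.1, adjusted 0.14). *Anxa5* contributed 19.94%, 20.15% and 21.07% of this sum in control and 21.35%, 22.6% and 21.81% in KO, again without overlap (exact permutation test, p = 0.1, adjusted 0.14). As TPM, *Anxa2* (739.7 to 762.8 in control, 797.5 to 816.7 in KO) did not overlap between groups either. The same held for *Anxa6* (515.1 to 531.6 in control, 535.4 to 569.6 in KO). As CPM both genes overlapped, and *Anxa1* overlapped in both units.

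*Ehd1*, an EH-domain ATPase that remodels endocytic membrane, was measured at 109.1, 113.2 and 110.3 CPM in control and at 105.0, 101.5 and 93.72 CPM in KO. All KO libraries were below all control libraries, but the log2 fold change of -0.15 (SE 0.049, 95% interval -0.25 to -0.04) did not pass the threshold (quasi-likelihood test of edgeR, adjusted p = 0.0975). *Ano5*, of the anoctamin family of scramblases and channels, was low, at 13.2, 10.87 and 11.45 CPM in control and at 12.47, 9.139 and 13.34 CPM in KO. The highest and the lowest of these 6 values were both KO libraries, and the log2 fold change was -0.02 (SE 0.14, 95% interval -0.32 to 0.28, quasi-likelihood test, adjusted p = 0.962). *Mtm1*, the phosphoinositide phosphatase myotubularin, was the lowest of the 10, at 7.47, 4.979 and 6.405 CPM in control and at 8.454, 6.416 and 8.2 CPM in KO. Its groups overlapped (log2 fold change 0.29, SE 0.17, 95% interval -0.07 to 0.65, quasi-likelihood test, adjusted p = 0.383). *Mtm1* held 290 to 555 counts per library and *Ano5* 480 to 903, and their intervals were the widest of the 10. The interval of *Ano5* leaves out a fall of the size estimated for *Dysf*, and that of *Mtm1* leaves out any fall beyond -0.07.

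**Figure D2:**
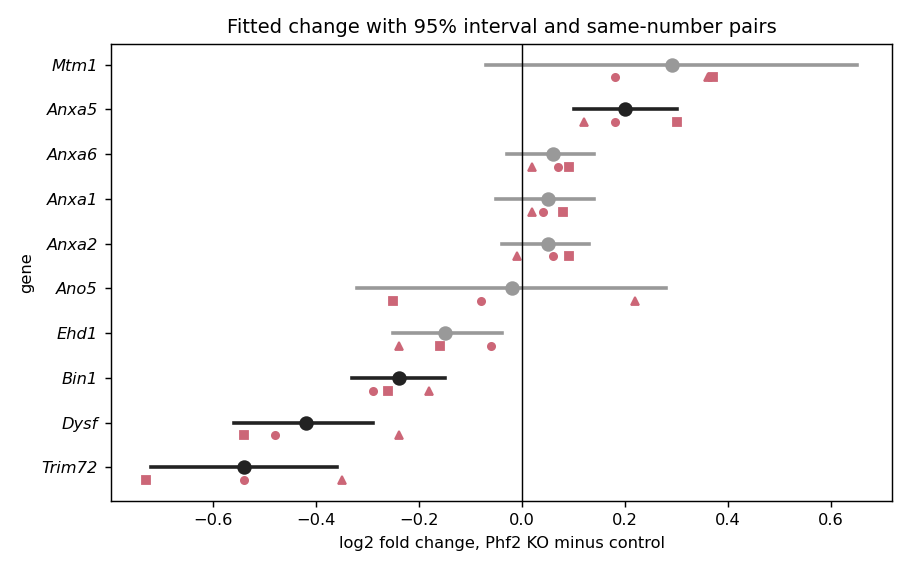
Log2 fold change of each of the 10 genes, KO minus control, from the fit of edgeR across all genes, with 95% intervals as bars (black past the threshold, grey not), above the differences of the same-numbered library pairs as small points. The intervals of *Trim72*, *Dysf*, *Bin1* and *Ehd1* lie below 0, that of *Anxa5* lies above 0, and the other 5 include 0.

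Deviations from the group means correlated positively between libraries with the same replicate number, so differences within pairs were taken as well. Whether the numbers mark true pairs was not tested. *Dysf* was lower in the KO of all 3 pairs (log2 differences -0.48, -0.54 and -0.24), as were *Trim72* (-0.54, -0.73 and -0.35) and *Bin1* (-0.29, -0.26 and -0.18). *Anxa5* was higher in all 3 (0.18, 0.30 and 0.12). In each of these 4 genes the second pair or the first gave the largest difference and the third pair the smallest. *Ehd1* was lower in all 3 pairs (-0.06, -0.16 and -0.24), *Mtm1* was higher in all 3 (0.18, 0.37 and 0.36), and *Ano5* differed in sign between pairs (-0.08, -0.25 and 0.22).

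Levels of different genes were compared as TPM. In control the order was *Anxa2* at 751.9 ± 11.59 (SD, n = 3), *Anxa6* at 526.1 ± 9.499, *Anxa1* at 486.6 ± 23.66, *Anxa5* at 452.0 ± 20.38 and *Bin1* at 447.8 ± 15.82 TPM. These 5 genes stood between the percentiles 98.4 and 99.0 of the genes tested in control. Much lower came *Trim72* at 77.97 ± 6.906, *Ehd1* at 71.78 ± 1.386 and *Dysf* at 18.84 ± 1.526 TPM, and last *Ano5* at 3.459 ± 0.650 and *Mtm1* at 2.619 ± 1.976 TPM. Neighbours whose control libraries overlapped were *Anxa1* with *Anxa5*, *Anxa5* with *Bin1*, *Trim72* with *Ehd1*, and *Ano5* with *Mtm1*.

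The KO order differed at a few places. *Anxa5*, at 524.1 ± 26.04 TPM (SD, n = 3), stood before *Anxa1*, at 507.0 ± 22.25, but their libraries overlapped. *Bin1* was at 394.8 ± 4.096 TPM and did not overlap *Anxa1*, the next gene above it. *Ehd1*, at 65.4 ± 2.322 TPM, stood 1.205-fold above *Trim72*, at 54.25 ± 5.246 TPM, without overlap, whereas in control the means were in the opposite order. *Dysf* was at 13.59 ± 0.856 TPM, and its rank among the genes tested went from the 59.8th to the 52.5th percentile. *Anxa2* was at 807.2 ± 9.589 and *Anxa6* at 552.2 ± 17.11 TPM. *Mtm1* at 3.514 ± 2.409 and *Ano5* at 3.242 ± 0.654 TPM overlapped. The TPM of *Mtm1* ranged from 0.47 to 5.243 between libraries while its counts ranged from 290 to 555, so its level per length is uncertain.

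**Figure D3:**
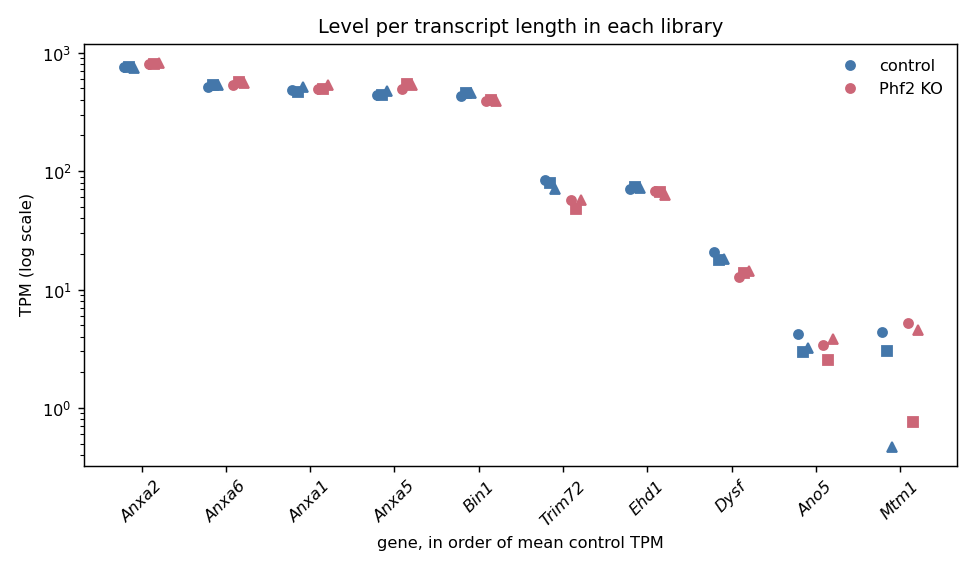
TPM of the 10 genes on a log axis, ordered by the control mean, with points for the 3 control and 3 KO libraries. The 4 annexins and *Bin1* form the top of the range, from 394.8 to 807.2 TPM as group means, *Trim72*, *Ehd1* and *Dysf* the middle, and *Ano5* and *Mtm1* the bottom, with *Mtm1* scattered from 0.47 to 5.243 TPM.

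Wider lists of related genes were read from the same fit. Of 84 listed genes 73 were tested, of which 1 was higher and 12 were lower in KO, against the 3.22% and 3.26% of all genes given above. *Cav3* stands in more than 1 list and is counted once here. With limma on log2-transformed TPM there were 6 calls, all lower, namely *Ank1*, *Cacna1s*, *Cav3*, *Cavin4*, *Jph2* and *Stac3*.

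The T-tubule and triad list held the most calls, with 7 of 12 genes lower, none higher and a median log2 fold change of -0.46. *Cav3* (caveolin 3, a muscle membrane scaffold that also binds dysferlin) fell from 11.86 ± 1.869 to 4.527 ± 0.882 CPM, with a log2 fold change of -1.39 (SD of 3 libraries, SE 0.16, quasi-likelihood test, adjusted p = 0.000181). The voltage sensor subunit *Cacna1s* had a log2 fold change of -0.74, the calcium release channel *Ryr1* -0.56, the ankyrin *Ank1* -0.54 and the junctophilin *Jph1*, which ties T-tubule to sarcoplasmic reticulum, -0.50. Their adjusted p-values in the quasi-likelihood test of edgeR were between 3.4e-05 and 0.000445. *Bin1*, at -0.24, was thus called lower together with 7 of these genes, with a smaller estimate than each of the 5 named. *Cacna1s*, *Ryr1*, *Stac3* and *Dysf* were picked out by the study from these same libraries, so their direction here is not independent evidence.

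Among ferlins and dysferlin partners, 3 of 12 genes tested were lower and none was higher, with a median log2 fold change of -0.03. Besides *Cav3* these were the caveolar coat gene *Cavin4*, with a log2 fold change of -0.40 (SE 0.05, quasi-likelihood test, adjusted p = 0.000318), and the calpain *Capn1*, at -0.27 (SE 0.055, adjusted p = 0.00873 in the same test). The call of *Capn1* was lost without control replicate 2 (adjusted p = 0.059) and without KO replicate 2 (0.054). *Myof*, the ferlin closest to *Dysf*, was at 360.7 CPM in control and 359.2 CPM in KO (log2 fold change -0.01, 95% interval -0.1 to 0.09, quasi-likelihood test, adjusted p = 0.968). *Dysf* made up 17.77%, 13.22% and 12.45% of the summed TPM of *Dysf* and *Myof* in control and 10.85%, 11.46% and 10.84% in KO, without overlap (exact permutation test, two-sided, p = 0.1, adjusted 0.14).

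Among annexin relatives and S100 partners, 2 of 9 genes tested were lower and 1 was higher, with a median log2 fold change of 0.04. *Anxa8* was at 27.77 ± 5.064 CPM in control and 14.71 ± 1.619 in KO (SD of 3 libraries), with a log2 fold change of -0.92 (SE 0.13, quasi-likelihood test, adjusted p = 0.00181). *Anxa11* went from 55.81 ± 5.496 to 42.51 ± 2.023 CPM, a log2 fold change of -0.39 (SE 0.072, adjusted p = 0.00482 in the same test). Both thus fell while *Anxa5* rose. *S100a10*, the partner of *Anxa2*, rose from 321.2 ± 17.34 to 365.9 ± 8.901 CPM (log2 fold change 0.19, SE 0.046, adjusted p = 0.0258 in the same test). Its call was lost when any library except control replicate 3 was left out (adjusted p 0.053 to 0.167) and with exactTest.

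Membrane trafficking and ESCRT repair genes, which pinch off or fuse damaged membrane, gave no call among 19 tested, with log2 fold changes from -0.09 to 0.32 and a median of 0.02 in the quasi-likelihood test of edgeR. At an unadjusted p under 0.05 there were 2, and exactTest, DESeq2 and limma-voom gave 0 calls as well. Of the 22 paralogs tested of *Ano5*, *Bin1*, *Mtm1* and *Ehd1*, only *Ehd4* passed, with 204.5 ± 7.04 CPM in control, 156.8 ± 10.33 in KO (SD of 3 libraries) and a log2 fold change of -0.38 (SE 0.053, quasi-likelihood test, adjusted p = 0.00068). *Ehd1* made up 15.95%, 16.71% and 16.02% of the summed TPM of the 4 EHD genes in control and 16.24%, 15.67% and 14.79% in KO, and the groups overlapped (exact permutation test, p = 0.3, adjusted 0.35).

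**Figure D4:**
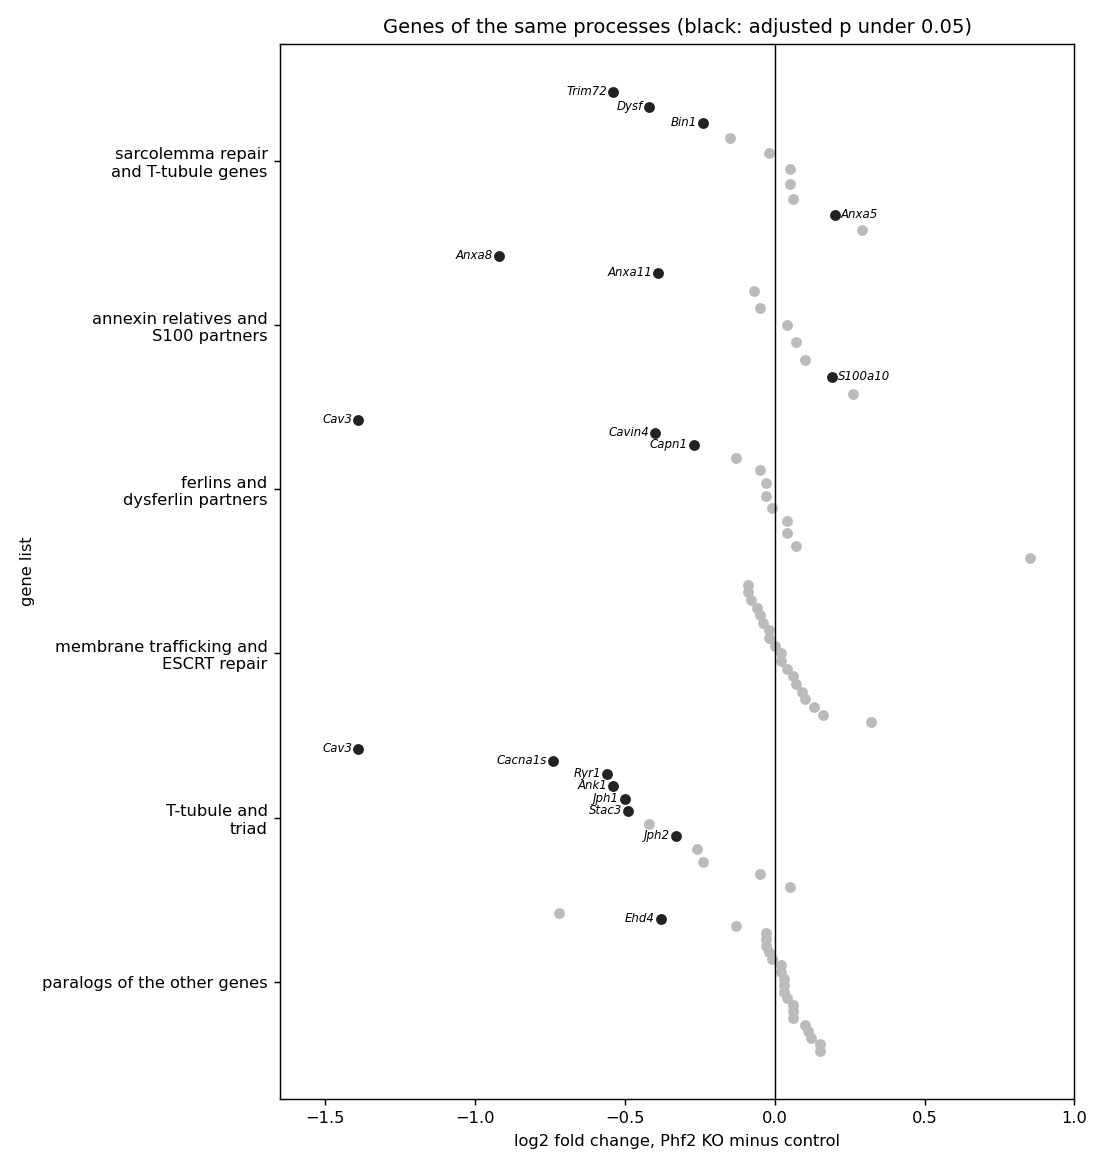
Log2 fold change, KO minus control, of each tested gene in the list of 10 and in the 5 wider lists, a row for each list, with black, named points for genes past the adjusted p threshold of 0.05 and grey points for the rest. The T-tubule and triad row lies mostly left of 0, with a median of -0.46, and the medians of the other lists lie between -0.03 and 0.04.

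In GENCODE M21 (GRCm38) the genes that fell lie at chr6:84008590-84211060 on the plus strand (*Dysf*, 16 transcripts), chr7:128003949-128011033 on the plus strand (*Trim72*, 2 transcripts) and chr18:32377230-32435737 on the plus strand (*Bin1*). *Anxa5* lies at chr3:36448923-36475894 on the minus strand, with 3 transcripts. All are protein-coding, as are the other 6 genes. Genes on the opposite strand share 4.23% and 1.26% of the exon bases of *Dysf*, 2.63% of *Anxa2* and 6.22% of *Bin1*. The libraries were directional, but the strand setting of the counting was not given in the sources used here.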

How the data were processed

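RNA sequencing of 3 control and 3 *Phf2* KO libraries was analysed. The authors aligned 150 bp paired reads from directional poly(A) libraries with HISAT2 to mm10, per the submitters' processing notes, and quantified genes with StringTie. Versions, annotation and strand setting were not given in the sources used here. The matrix deposited by the authors lists an estimated count per gene, already whole, so no rounding was needed. Covered bases per count had a median of 74.98 to 74.99 (genes with 1 transcript and at least 500 counts), so the authors' values are coverage times length over 75, not read tallies, and a read pair adds about 4. Per-library files deposited by the authors give TPM, a signal they scaled within each library, and coverage, from which only the unit of the counts was derived. Of 55401 genes, 54349 matched GENCODE M21 by versioned identifier.

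Low counts were removed by filterByExpr with a minimum count of 10, libraries were scaled by TMM, and groups were compared by the quasi-likelihood test of edgeR 4.0.16 (R 4.3.3) with Benjamini-Hochberg adjustment over 17310 genes, a threshold of 0.05 and a prior count of 0.125. CPM values are TMM-scaled. The common biological coefficient of variation was 0.135. Single values were compared by exact permutation tests. The 10 genes and all lists were chosen with earlier results of these data known. The genes named are the 10, *Phf2*, and of each wider list at most the 5 genes past the threshold with the largest change. The 8 skeletal muscle markers were named to define their list. *Myof*, *Cd14*, *Adgre1*, *Stac3*, *Jph2* and the antisense *Gm15533* were named after their values were seen. *Stac3* and *Jph2* passed the threshold but stood outside the 5.

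Over 10923 genes averaging 5 CPM or more, deviations from the group means correlated at 0.25, 0.236 and 0.158 between libraries with the same replicate number. For different numbers the correlation was at most -0.013 (correlations over genes, not over independent replicates). Deviations from a group mean cancel within the group, so positive same-number values force negative values elsewhere, and these are no separate contrast. Whether the numbers mark true pairs was not tested. The study's test has no pairing, so the replicate block was an alternative. On simulated data (17310 genes, 200 changed) the procedure called 137 genes, 8 of them unchanged, and recovered 78% of 2-fold and 51% of 1.5-fold changes. The simulated counts followed the mean of each gene and the trend of dispersion alone, without shared deviations of replicates. All changes of the 10 genes were smaller than 1.5-fold, so these rates do not describe them. Alternatives were exactTest, DESeq2 1.42.0, limma-voom (limma 3.58.1), other normalizations and filters, counts divided by 4, the block, limma on log2(TPM + 1) and log2(TPM + 0.1), and leaving out each library. Motifs were searched in RefSeq promoter windows on both strands. Figures were drawn with matplotlib 3.10.9.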

Additional observations from a re-analysis of the deposited data

How the results depend on the processing

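The lowest counts of calls came from limma on TPM, which changes the unit, the test and the scaling together. Of the 10 genes 4 passed the threshold by the quasi-likelihood test of edgeR, 3 by exactTest, and 0 by limma on log2(TPM + 1) as well as on log2(TPM + 0.1), where 6 had an unadjusted p under 0.05. Leaving out each library gave 3 to 4. For the wider lists the count was 13, with 6 and 6 by limma on TPM and 11 to 14 without single libraries. For all genes it was 1122, with 127 and 153 by limma on TPM, 468 without control replicate 2, 577 without KO replicate 2, 613 without KO replicate 3 and 1039 without control replicate 3. The cause was not tested. *Dysf*, *Trim72* and *Bin1* stayed past the threshold whichever library was left out, with adjusted p-values of at most 0.0158, 0.0378 and 0.0344, and under the 10 alternatives on counts with all 6 libraries. Those of *Anxa5* are given above. *Ano5* had a log2 fold change of -0.13 to 0.12 without single libraries, positive without control replicate 1 (0.06) and KO replicate 2 (0.12). *Phf2* ranged from -1.40 to -1.34 without single libraries and from -1.38 to -1.30 under the other alternatives.

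With the replicate block, 4 of the 10 genes, 14 of the wider lists and 1316 of all genes passed, and no call among the 10 changed. Rescaling TPM to reference genes moved 3 control and 2 KO levels of the 10 by more than 1 SD. The levels of *Ano5* and *Mtm1* rest on few counts.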
